A study of Homo sapiens with 2 samples.

Results

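The early growth response genes EGR1, EGR2 and EGR3, the orphan nuclear receptor genes NR4A1, NR4A2 and NR4A3, the immediate early response genes IER2, IER3 and IER5, and SRF, the gene of serum response factor, were followed in HSC-1 cells after knockdown of the long noncoding RNA LINP1. These 10 genes were taken from the deposited table by their symbols, 10 of 44591 genes, and each of them passed the minimum of 10 reads summed over the libraries that 19840 genes passed. They were chosen by family name after the difference between these same libraries was known, so their fold changes are given as a description and no test was made on them. HSC-1, a human line from a cutaneous squamous cell carcinoma, was transfected either with the control oligonucleotide siNC or with siLINP1, and 1 library of total RNA was sequenced per condition. The sample labels give transfection at about 70% confluency, 6 h without serum and another 24 h in medium with serum, whereas the study's methods give another confluency and a later extraction. Which siLINP1 oligonucleotide was sequenced is not given in the sources used here. No difference below has a replicate check, and the 95% intervals cover counting error only. In bulk RNA, fewer expressing cells and less RNA per cell cannot be told apart.

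Immediate early genes are transcribed within minutes of a stimulus such as serum, a growth factor or stress, from factors that are already present in the cell. Serum response factor binds the CArG box, a short element that recruits ternary complex factors of the ELK family, which ERK phosphorylates, or myocardin-related cofactors, which follow the actin cytoskeleton. CREB, which binds the cAMP response element (CRE), gives the other common route. EGR proteins are zinc finger transcription factors, NR4A proteins are nuclear receptors that work without a known natural ligand, and the IER genes encode small proteins whose transcripts are made with the same rapid kinetics.

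Reads counted on genes came to 18829544 for siNC and 15383081 for siLINP1, and each count was divided by a size factor (1.08 and 0.930, by the median of ratios). LINP1 had 167 reads in siNC and 23 in siLINP1, which is -2.65 on the log2 scale (95% interval -3.35 to -2.02). Of 12 keratinocyte markers, 5 lay under 1 RPKM (a read count divided by gene length and library total) in both libraries, among them TP63, which specifies the squamous lineage, with 6 and 8 reads. The 12 had 2824 and 2436 reads in sum. Of them, 2 passed 1.5-fold upwards and 4 downwards, where 14.4% and 13% of all genes past the read minimum did. TP63 was among the former, with a log2 interval of -1.09 to 2.43, and KRT14 with 243 and 87 reads among the latter. The 10 mesenchymal markers had 100186 and 67066 reads in sum, from VIM with 61097 and 41992 down to COL1A2 with 4 and 8. Of these, 2 were higher, ZEB2 among them with 416 and 810 reads, and 2 lower by more than 1.5-fold, and the interval lay below 0 for 7. The share of all genes with an interval below 0 was not counted. The part of this marker profile in the results below was not tested.

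All 10 genes had a higher scaled count in siLINP1 than in siNC, with a median log2 fold change of 0.88, against -0.023 over all genes kept. The size ranged from 7.69-fold for EGR1 to 1.11-fold for NR4A1. Of the 10 genes, 6 were higher by more than 1.5-fold, where 14.4% of all genes kept were, and 5 by more than 2-fold, where 6.74% were. Among the genes with at least 100 reads, which all 10 have, these shares of all genes were 8.72% and 2.71%. The whole interval lay above no change for 10 of the 10 genes (23% of all genes kept) and above 2-fold for EGR1, EGR2 and IER2 (1.59% of all genes kept). The members were chosen with this contrast known, so nothing is read from these counts.

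**Figure D1:**
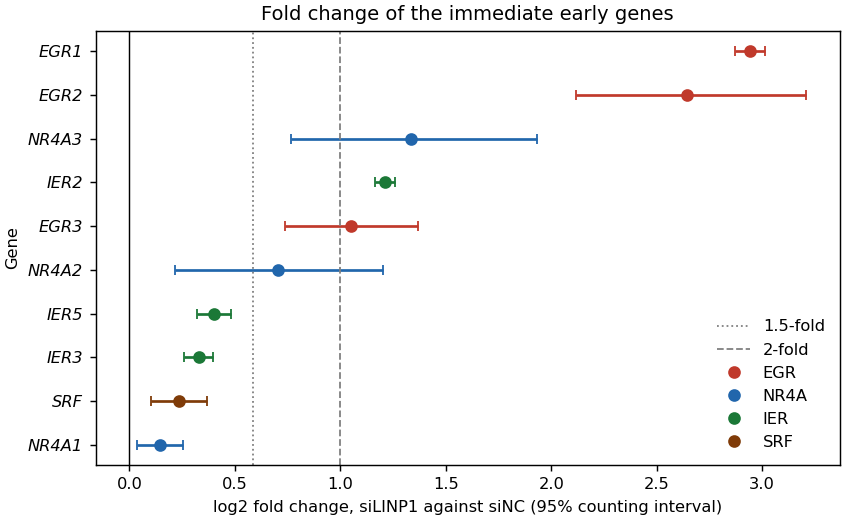
The log2 fold change of each gene (horizontal axis, siLINP1 against siNC, 1 library each) is shown with its 95% counting interval, and colours mark the families. EGR1 at 2.94 and EGR2 at 2.64 stand to the right of the other 8 genes, and IER5, IER3, SRF and NR4A1 lie left of the 1.5-fold line.

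EGR1 and EGR2 had the largest fold changes of the 10 genes, while EGR3 came after NR4A3 and IER2 in that order. EGR1, a zinc finger factor that serum and growth factors induce, had 1874 reads in siNC and 12466 in siLINP1. The log2 fold change of EGR1 was 2.94 (95% interval 2.87 to 3.01), the rank 15 among the 13336 genes with at least 100 reads. By number of reads EGR1 moved from rank 2205 to rank 118 of all genes in the table. EGR2, which is known for its role in peripheral myelination, had 35 and 189 reads, giving a log2 fold change of 2.64 (95% interval 2.12 to 3.21). The intervals of EGR1 and EGR2 overlapped, so these folds cannot be ordered at this depth. EGR3, a relative needed for muscle spindles, had 133 and 238 reads and a lower log2 value of 1.05 (95% interval 0.74 to 1.37), below the intervals of both. The family stayed dominated by EGR1, which made up 93.6% of the summed EGR RPKM in siNC and 97.2% in siLINP1.

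The reference sequence just upstream of EGR1 and EGR2 is shown because it holds the elements through which serum response factor and CREB are known to act. The first base upstream of the canonical GENCODE transcript is -1. Each sequence reads 5′ to 3′ on the gene's strand of GRCh37, and capitals mark CArG boxes (10 bases) and the CRE core TGACG or its reverse complement CGTCA. A sequence starts at -150 and stops before any exon in GENCODE. EGR1 is given on the plus strand (chr5:137801018-137801167) and EGR2 on the minus strand (chr10:64576134-64576276).
EGR1: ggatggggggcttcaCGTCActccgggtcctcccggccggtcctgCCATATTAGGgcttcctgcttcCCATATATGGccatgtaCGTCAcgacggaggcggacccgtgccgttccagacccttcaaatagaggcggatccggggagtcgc
EGR2: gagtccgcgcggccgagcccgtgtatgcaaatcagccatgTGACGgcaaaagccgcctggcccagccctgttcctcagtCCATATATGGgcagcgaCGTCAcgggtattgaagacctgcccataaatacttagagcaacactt
EGR1 holds CArG boxes from -105 to -96 and from -83 to -74. EGR2 has the same letters as the nearer of these, CCATATATGG, from -71 to -62, followed by a CRE core at -54. EGR3, whose sequence is not shown, also matched a CArG box from -71 to -62 and a CRE core at -54. In the 300 bases upstream, 1.40% of 19869 coding genes hold a CArG box and 0.0403% hold at least 2, while 28.0% hold at least 1 CRE core.

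The NR4A genes split by level. NR4A1 (NUR77), the member read most, had 1420 reads in siNC and 1359 in siLINP1. It had fewer reads in siLINP1 before scaling and a log2 fold change of 0.15 (95% interval 0.038 to 0.25) after it, so its direction rests on the scaling between libraries. NR4A2 (NURR1), a factor of midbrain dopamine neurons, had 61 and 86 reads, giving a log2 fold change of 0.70 (95% interval 0.21 to 1.20). NR4A3 (NOR1) had 38 and 83 reads, giving a log2 fold change of 1.34 (95% interval 0.77 to 1.93). The interval of NR4A3 lay wholly above that of NR4A1, while those of NR4A2 and NR4A3 overlapped. NR4A1 carried 93.9% of the summed NR4A RPKM in siNC and 90.2% in siLINP1, and the reads summed over the family gave a log2 fold change of 0.22, much nearer to that of NR4A1 than to the family's median of 0.70.

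The sequences upstream of the NR4A genes are shown because all 3 genes hold CRE cores and no CArG box. They are printed as for EGR1. NR4A1 is on the plus strand (chr12:52445076-52445185), NR4A2 on the minus strand (chr2:157189275-157189383) and NR4A3 on the plus strand (chr9:102584017-102584136).
NR4A1: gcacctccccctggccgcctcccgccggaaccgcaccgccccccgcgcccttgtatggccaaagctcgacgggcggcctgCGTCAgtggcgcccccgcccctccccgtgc
NR4A2: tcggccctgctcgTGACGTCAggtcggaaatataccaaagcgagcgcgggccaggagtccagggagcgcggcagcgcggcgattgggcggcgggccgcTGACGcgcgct
NR4A3: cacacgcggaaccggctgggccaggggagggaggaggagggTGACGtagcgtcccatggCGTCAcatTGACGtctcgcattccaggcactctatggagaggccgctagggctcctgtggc
In the full 300 bases each of the 3 genes holds 4 CRE cores, a number that 0.458% of coding genes reach, and none holds a CArG box. In NR4A2 a pair of these cores overlaps as the complete element TGACGTCA from -137 to -130, which 2.57% of coding genes hold.

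The IER genes were the most abundant members in siNC and differed among themselves. IER2, which encodes a nuclear protein with a role in transcription, had 5251 reads in siNC and 10529 in siLINP1, a log2 fold change of 1.21 (95% interval 1.17 to 1.26). IER3 (IEX-1), a regulator of apoptosis that NF-kB also induces, had 3303 and 3586 reads, giving a log2 fold change of 0.33 (95% interval 0.26 to 0.40). IER5, which is known to act with heat shock factor HSF1, had 2386 and 2728 reads and 0.40 (95% interval 0.32 to 0.48). IER2 thus lay above both, with intervals that do not meet, while those of IER3 and IER5 overlapped. In the 300 bases upstream, IER2 holds 1 CRE core and no CArG box, and IER3 and IER5 hold neither.

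SRF itself differed little. It had 934 and 951 reads, giving a log2 fold change of 0.24 (95% interval 0.10 to 0.37). Its own upstream sequence on the plus strand (chr6:43138857-43139006) is shown because SRF is known to bind its own promoter.
SRF: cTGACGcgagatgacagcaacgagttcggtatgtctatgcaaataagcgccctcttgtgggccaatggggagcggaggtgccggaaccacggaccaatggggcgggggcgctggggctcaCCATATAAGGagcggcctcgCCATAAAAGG
It holds CArG boxes from -30 to -21 and from -10 to -1, and an EGR site (GCGGGGGCG) from -49 to -41. In the 300 bases upstream, 8.93% of coding genes hold an EGR site. Of the members 2 do, the other being NR4A1, from -61 to -53.

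Levels per gene length, in RPKM, show how far the change reordered the members. In siNC, IER3 at 141 RPKM (95% interval 137 to 146) and IER2 at 136 RPKM (132 to 140) came first and could not be told apart. IER5 followed at 54.1 RPKM, EGR1 at 31.7, NR4A1 at 19.1 and SRF at 11.6. EGR3 had 1.57 RPKM, and NR4A2 at 0.917, EGR2 at 0.588 and NR4A3 at 0.320 were the lowest, with overlap between neighbours in that order. In siLINP1, IER2 came first at 334 RPKM (328 to 340), EGR1 second at 258 (254 to 263) and IER3 next at 188 (182 to 194), with intervals that do not meet. Among the 19840 genes kept, EGR1 moved from rank 2314 to rank 205 by RPKM. EGR2 reached 3.89 RPKM and EGR3 3.44, with overlapping intervals, whereas in siNC EGR3 had been above EGR2. NR4A3 remained the lowest at 0.855 RPKM.

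**Figure D2:**
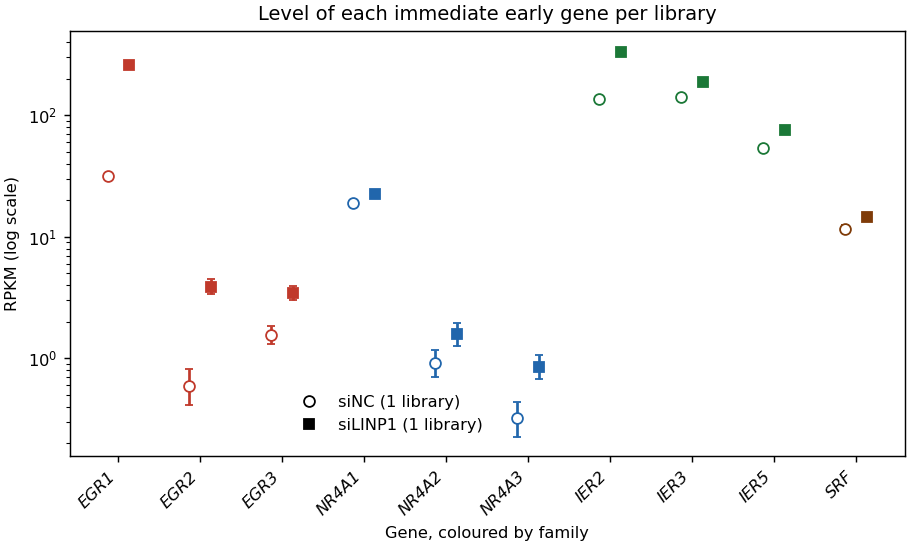
RPKM of each gene on a log axis in the siNC library (open circles) and the siLINP1 library (filled squares), with 95% counting intervals, which are smaller than the symbols for well-read genes. EGR1 climbs from 31.7 to 258 RPKM, past IER3, while NR4A1 goes from 19.1 to 22.4 and SRF from 11.6 to 14.5 RPKM.

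The depth behind the members differs widely. EGR1 and IER2 have 14340 and 15780 reads in both libraries together, whereas NR4A3, NR4A2, EGR2 and EGR3 have 121, 147, 224 and 371. NR4A3 is at percentile 95.8 of the log2 fold change over all genes kept and IER2 at 95.4, but the interval of IER2 is much narrower. In the order of fold changes, the one gap between neighbours that the intervals leave clear is that between EGR2 and NR4A3.

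**Figure D3:**
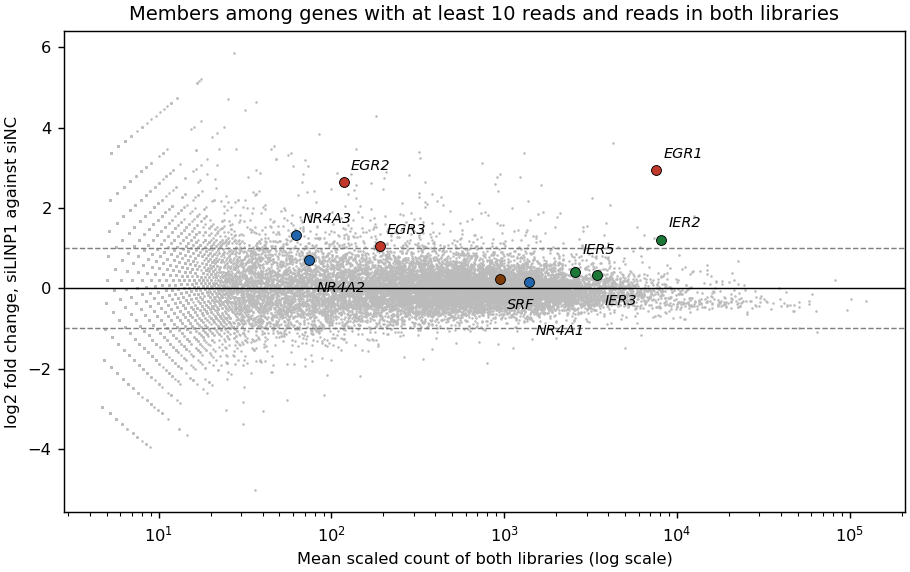
Each point is a gene with at least 10 reads and with reads in both libraries, placed by its mean scaled count (log axis) and its log2 fold change, siLINP1 against siNC. The members are coloured by family, dashed lines mark 2-fold, and EGR1 at 2.94 and IER2 at 1.21 are the members above 2-fold with the most reads.

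Genes that encode the machinery upstream of these members were compared as lists. Of 8 SRF cofactors, 7 passed the minimum of reads, and 2 of them were higher by more than 1.5-fold and 0 lower. Of all genes with at least 100 reads, which these 7 have, 8.72% were higher and 6.77% lower. FHL2, a LIM-domain protein that binds SRF, had 868 and 1524 reads (log2 fold change 1.02, 95% interval 0.90 to 1.14), and SRFBP1 had 292 and 390 (0.63, 95% interval 0.40 to 0.85). Of the ternary complex factors, ELK4 had 1301 and 1629 reads (0.53), ELK3 2315 and 2459 (0.30) and ELK1 1600 and 1340 (-0.046, 95% interval -0.15 to 0.059). MKL1, the MRTF-A gene, had a log2 fold change of 0.37 and MKL2 one of -0.045.
Of 12 ERK pathway kinases, only BRAF passed 1.5-fold in either direction. Among all genes with at least 100 reads, which the 12 have, 8.72% were higher and 6.77% lower by that much. BRAF had 186 and 368 reads (log2 fold change 1.19, 95% interval 0.94 to 1.46). MAP2K1, which encodes a MEK kinase, had 2386 and 1573 reads (-0.39), and the median of the list was -0.068. Of 8 genes of the CREB family and its coactivators, 0 were higher and 1 was lower by more than 1.5-fold, beside the same shares of 8.72% and 6.77%. The median of this list was 0.19. The interval lay above 0 for 6 genes, where 23% of all genes kept had this, and below 0 for 2, a share not counted over all genes. CREB1 had 754 and 745 reads (0.19) and CRTC3, a CREB coactivator, 677 and 389 (-0.59, close to the 1.5-fold limit).

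Among relatives and partners, EGR4 had 5 reads in siNC and 48 in siLINP1, a log2 fold change of 3.47 with a wide interval of 2.15 to 5.16. NAB2, a corepressor that EGR1 is known to induce, had 877 and 933 reads (0.30, 95% interval 0.16 to 0.43), and NAB1 530 and 411 (-0.16, 95% interval -0.35 to 0.031). RXRA, a dimer partner of NR4A1 and NR4A2, had 720 and 447 reads (-0.48), and IER5L, the relative of IER5, 766 and 639 (-0.052). Of the 6 genes in this list, EGR4 alone was higher by more than 1.5-fold, where 14.4% of all genes kept were.

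The median over a list of 37 other immediate early genes was 0.87, beside 0.88 for the members. It was written with results for such genes already known. More than 1.5-fold higher were 27 of the 37 and more than 2-fold 13, where 8.72% and 2.71% of all genes with at least 100 reads were. Lower by more than 1.5-fold were 0 of them, where 6.77% of all genes with at least 100 reads were. FOS, the partner of JUN in AP-1, had 112 and 500 reads (2.37, 95% interval 2.07 to 2.68), FOSB 118 and 497 (2.28) and ATF3 1197 and 4929 (2.25). EGR1 lay above these 37 genes, whose largest log2 fold change was 2.37. EGR4, listed with the relatives, is not among the 37 and had 3.47 (95% interval 2.15 to 5.16), beside 2.94 for EGR1. Others lay near no change, such as PLK2 with 2711 and 2680 reads (0.19) and SGK1 with 452 and 415 (0.086). ID1 had 971 and 560 reads (-0.58) and fell just short of being lower by more than 1.5-fold.
The cytoskeletal genes that SRF regulates together with MRTF were listed as well. Of 15 such genes, 0 were higher and 3 were lower by more than 1.5-fold, where 14.4% and 13% of all genes kept were, and the median log2 fold change was -0.28 beside -0.023 over all genes kept. ACTB had 41899 and 36511 reads (0.011), ACTG1 60149 and 34966 (-0.57), VCL 4480 and 3553 (-0.13) and CNN2 2970 and 1228 (-1.06). ACTA2 was the highest of them, with 477 and 563 reads (0.45). A value above 0, which all 10 members had, was found in 3 of the 15. The whole interval lay above 0 for 2 of the 15, where 23% of all genes kept had this, and below 0 for 10. Over all genes, values above 0 and intervals below 0 were not counted. In deeply read genes an interval can clear 0 at a small fold.

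**Figure D4:**
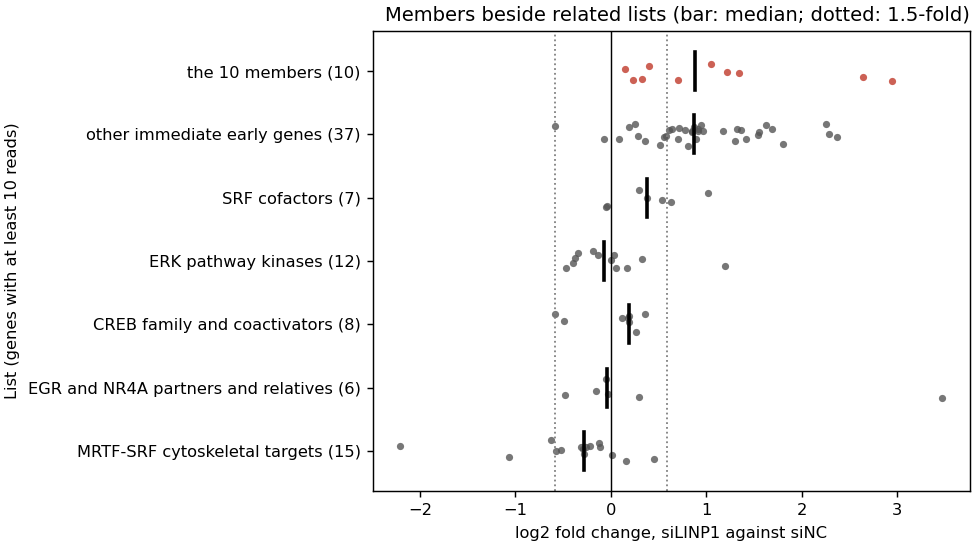
Log2 fold change (siLINP1 against siNC) of each gene with at least 10 reads, by list, with the number of genes in parentheses, the median as a bar and dotted lines at 1.5-fold in either direction. The members and the other immediate early genes have medians of 0.88 and 0.87, while the MRTF-SRF cytoskeletal genes have -0.28; the vertical scatter within a row has no meaning.

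The genes around the members were followed too. Within 50 kb of a member lay 44 other genes, of which 26 had at least 100 reads, and 25 of these stayed within 1.5-fold, 1 was higher and 0 lower. Of all genes with that many reads, 8.72% were higher and 6.77% lower, so most genes stay within 1.5-fold wherever they lie. The neighbours' median log2 fold change was 0.047. Beside EGR1, KDM3B had 1652 and 1608 reads (0.17), REEP2 784 and 510 (-0.41) and ETF1 3756 and 3653 (0.17), while ADO next to EGR2 had 704 and 730 (0.26). STX10, which lies 94 bases from IER2 on the other strand, had 1992 and 1200 reads (-0.52).
The exception was ENSG00000267598.1, an antisense gene that lies inside IER2 on chromosome 19 of GRCh37 from 13263885 to 13265007. It had 1762 and 3541 reads and a log2 value of 1.22 (95% interval 1.13 to 1.30), beside 1.21 for IER2. The strand setting of the counting is not given in the sources used here, so the reads of this pair cannot be told apart. Over IER3 and NR4A1 there were likewise genes on the opposite strand, with 332 and 334 reads and with 244 and 228 reads, and over EGR3 one with 18 and 5.

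**Figure D5:**
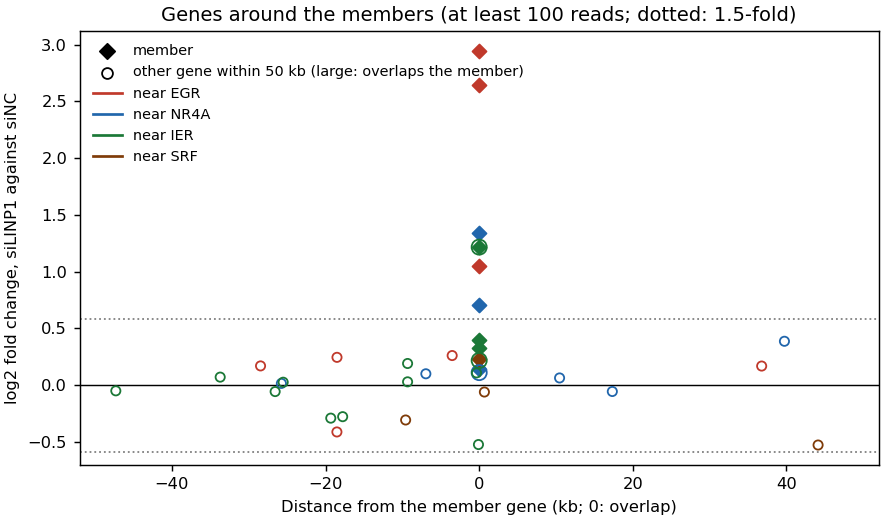
Log2 fold change (siLINP1 against siNC) of the members (diamonds, at distance 0) and of other genes with at least 100 reads within 50 kb (open circles), against the distance in kb; negative distances lie at lower coordinates. Of the 26 other genes, 25 lie between the dotted 1.5-fold lines, and the exception is the large circle over IER2.

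In structure the members were compact. In GENCODE the median span of a member on GRCh37 was 5162 bases, against 22974 bases over 19869 coding genes, and the median number of exons was 2 against 8. IER5 has 1 exon, while EGR1, EGR2, EGR3, IER2 and IER3 have 2 each. NR4A1 and SRF have 7 exons, NR4A2 and NR4A3 8, and NR4A3 is the longest at 45007 bases. Among the 5 members beyond 2-fold were therefore 4 genes with 2 exons and NR4A3.
The count table places EGR1 on chromosome 5 from 137801181 to 137805004 and EGR2 on chromosome 10 from 64571756 to 64578927, IER2 on chromosome 19 from 13261282 to 13265722 and NR4A1 on chromosome 12 from 52416616 to 52453291. It places NR4A2 on chromosome 2 from 157180944 to 157189287, NR4A3 on chromosome 9 from 102584137 to 102629173 and IER5 on chromosome 1 from 181057638 to 181059979. IER3 lies on chromosome 6 from 30710976 to 30712327, SRF on chromosome 6 from 43139033 to 43149244 and EGR3 on chromosome 8 from 22545174 to 22550815, all in hg19. The table's spans of EGR2, NR4A1, NR4A2, NR4A3, IER3 and IER5 reach upstream of the canonical GENCODE transcripts. The printed sequences of EGR2 and NR4A1 therefore lie inside those spans, and that of NR4A2 does so in part. AU-rich pentamers (ATTTA), which mark many unstable transcripts, occurred in the 3′UTR of 9 of the 10 genes and of 66.0% of coding genes. NR4A3 and IER5 had 10 each, EGR1 had 1 and IER2 none. The longer nonamer TTATTTATT was in IER5 and SRF, where 8.22% of coding genes have it, and in none of the 5 members beyond 2-fold.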

How the data were processed

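Total RNA was sequenced by Illumina protocols, 1 library per condition. Reads were aligned to GRCh37/hg19 with Tophat2, and the authors deposited the raw read counts per gene that HTSeq gave. The submitters' processing notes also name HISAT2, HISAT and Bowtie2. Versions, annotation and strand setting are not given in the sources used here. The deposited RPKM values equal the count per kilobase of the table's gene length and per library total. The 12 other columns of per-sample values were not used.

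Genes with at least 10 reads over both libraries were kept, counts were divided by size factors (median of ratios), and log2 fold changes carry no pseudocount. Intervals (95%, Clopper-Pearson) come from the split of a gene's reads between libraries. Levels are RPKM with Clopper-Pearson intervals. Members and lists were chosen with earlier results of these data known. The genes to be named were all members, LINP1, the genes of the lists, genes within 50 kb of a member, and the 5 coding genes with at least 1000 reads nearest to the members' median. Which list genes serve as examples was decided partly by role, after their values were seen.

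Structure and sequence come from canonical transcripts of GENCODE 44 mapped to GRCh37. The 300 bases upstream were searched on both strands for CArG boxes, TGACGTCA, TGACG (which lies within the former), GCGGGGGCG or GCGTGGGCG, AAAGGTCA, TATAAA, CCGGAAGT and the NF-kB consensus. AAAGGTCA, CCGGAAGT and the NF-kB consensus had 0 members, against 1.07%, 5.36% and 13.2% of coding genes. The calculation was tested on simulated Poisson counts without variation between cultures, so that test covers counting error only. Alternatives were total-count scaling, edgeR TMM factors, RPKM, pseudocounts of 1 and 5, other read minimums, coding genes only and removal of a GC and length trend. Python 3.11.15, scipy 1.17.1, statsmodels 0.14.6 and edgeR 4.0.16 (TMM factors) were used. The result of 1 gene in the lists is not reported here.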

Additional observations from a re-analysis of the deposited data

How the results depend on the processing

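Each of the 10 members stayed higher in siLINP1 under all 6 settings tried for its fold change. A pseudocount cannot turn a direction, and total-count scaling, RPKM and TMM factors raised every value. Only the trend removal could have turned a member, so the 6 settings say little about direction. The members higher by more than 1.5-fold and 2-fold stayed 6 and 5 under every scaling and pseudocount tried for these counts. The filters could not change the counts of members, because all 10 are coding genes with at least 100 reads. Scaling by total count, or the deposited RPKM, added 0.082 to every log2 fold change. Removing the trend with GC content and transcript length, fitted on 11327 genes, moved IER2 to 1.42, IER3 to 0.56 and NR4A1 to 0.31, and gave a median of 0.84. A pseudocount of 5 lowered values by at most 0.17. Over all genes, the filter moved the counts most: beyond 1.5-fold there were 7048 higher genes with at least 1 read, 1163 with at least 100 reads and 1558 among coding genes, in place of 2863. Beyond 2-fold there were 5179, 362 and 642, and 824 with a pseudocount of 5, in place of 1338. Depth limits NR4A2, NR4A3, EGR2 and EGR3 most. No paired analysis was possible because each condition has 1 library.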

Other observations

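The CArG boxes and CRE cores upstream of the members occur in other genes too, and those genes were counted as a description. Outside the members, 143 genes with at least 1 CArG box in the 300 bases upstream had at least 100 reads. Of these, 11 (7.69%) were higher by more than 1.5-fold and 12 lower, and their median log2 fold change was -0.058. Among 73 genes with at least 4 CRE cores, 10 (13.7%) passed 1.5-fold upwards and 0 downwards, with a median of 0.030, and 2 passed 2-fold upwards. Of all genes with at least 100 reads, 8.72% passed 1.5-fold upwards, 6.77% passed it downwards and 2.71% passed 2-fold upwards. Genes with no CRE core were not counted apart. Among 3827 genes with at least 1 CRE core, 309 (8.07%) passed 1.5-fold upwards and 187 downwards, with a median of -0.0069. Genes with no CArG box, 11175 in number, were higher in 8.04% of cases. The difference between these shares was not tested.

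Over 2 libraries, likeness of pattern can only be closeness of the log2 fold change. The 5 coding genes with at least 1000 reads nearest to the members' median of 0.88 were CNST with 1020 and 1620 reads, ZNF550 with 435 and 691, GALK2 with 409 and 649, SORBS2 with 821 and 1301 and RHOB with 2444 and 3872. RHOB, a small GTPase that growth factors induce, is also in the list of other immediate early genes.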
